A study of Sus scrofa with 6 samples.

Results

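The classical histone deacetylases are the zinc-dependent enzymes that take acetyl groups off lysines of histones and other proteins, and valproic acid (VPA), an anticonvulsant, inhibits several of them. The genes described here are HDAC1, HDAC2, HDAC3 and HDAC8 of class I, HDAC4, HDAC5, HDAC7 and HDAC9 of class IIa, HDAC6 of class IIb and HDAC11 of class IV. They were chosen by symbol because valproate targets this enzyme family, though it does not inhibit every member. Of these genes, 10 of 10 were found among the 17201 genes listed for each library. RNA was sequenced from the prefrontal cortex of 6 pigs (Sus scrofa) aged 3 months. The VPA group held animals 391, 392 and 393, exposed in early gestation and labelled with a dose of 75 mg/kg, and the control group held animals 401, 402 and 408, labelled as untreated. Strain, litter, sex and any vehicle given to controls are not stated in the sources used here.

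Class I enzymes sit mainly in the nucleus. HDAC1 and HDAC2 are close paralogs that form the catalytic core of the SIN3, NuRD, CoREST and MiDAC corepressor complexes, and HDAC3 works in the NCoR complex. Class IIa enzymes have little catalytic activity of their own and repress MEF2 transcription factors until kinases and 14-3-3 proteins move them to the cytoplasm. HDAC6 deacetylates tubulin, HDAC8 deacetylates cohesin and HDAC11 removes long-chain acyl groups. In cell-free assays of mammalian enzymes valproate inhibits class I and, less strongly, class IIa, and does not inhibit HDAC6. In mouse brain HDAC1 protein is reported mostly in progenitors and glia and HDAC2 protein mostly in neurons.

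The libraries were evenly deep and differed in some marker lists. Total counts ran from 16285517 to 17989032, and 1 CPM, a count scaled to the library total, stood for 16.3 to 18.0 reads. Markers of the labelled tissue were present: 12 of 12 glutamatergic neuron markers and 12 of 12 interneuron markers had reads in every library. The summed level of 11 oligodendrocyte precursor markers was 1214 to 1394 CPM in VPA and 987 to 1145 CPM in control libraries. That of 18 oligodendrocyte markers was 18552 to 20846 CPM in VPA and 14116 to 18847 CPM in control libraries. Of 11 astrocyte markers, 9 had positive and 2 negative log2 fold changes (median 0.19), and their summed level was 10659 to 12160 CPM in VPA and 10006 to 10957 CPM in control libraries. VPA 393 had 807 CPM of 12 striatal projection neuron markers, against 349 and 364 CPM in the other VPA libraries and 300.0 to 330 CPM in controls. The Y-linked gene EIF1AY had 450 to 548 reads in 4 libraries, 0 in VPA 392 and 2 in control 401. In bulk tissue, fewer cells of a type and less RNA per cell cannot be told apart.

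HDAC5 and HDAC2 had the highest levels per gene length and HDAC8 the lowest. Levels are compared as the deposited FPKM, in which reads are divided by gene length and library total, over the 6 libraries. HDAC5 averaged 37.4 FPKM (34.3 to 42.0) and HDAC2 36.9 FPKM (34.2 to 38.5), and their ranges overlapped. HDAC11 followed at 30.6 FPKM (28.0 to 31.8) and HDAC3 at 20.5 FPKM (18.6 to 22.3), each clear of its neighbours. HDAC6 averaged 9.64 FPKM (8.54 to 10.3) and HDAC1 8.10 FPKM (6.23 to 9.81), with overlapping ranges. HDAC4 averaged 3.18 FPKM (2.87 to 3.47) and HDAC7 3.17 FPKM (2.44 to 3.61), also overlapping. HDAC9 stood at 1.44 FPKM (1.35 to 1.53) and HDAC8 at 0.929 FPKM (0.753 to 1.12). Of the 9 pairs of neighbours in this order, 3 had overlapping ranges.

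**Figure D1:**
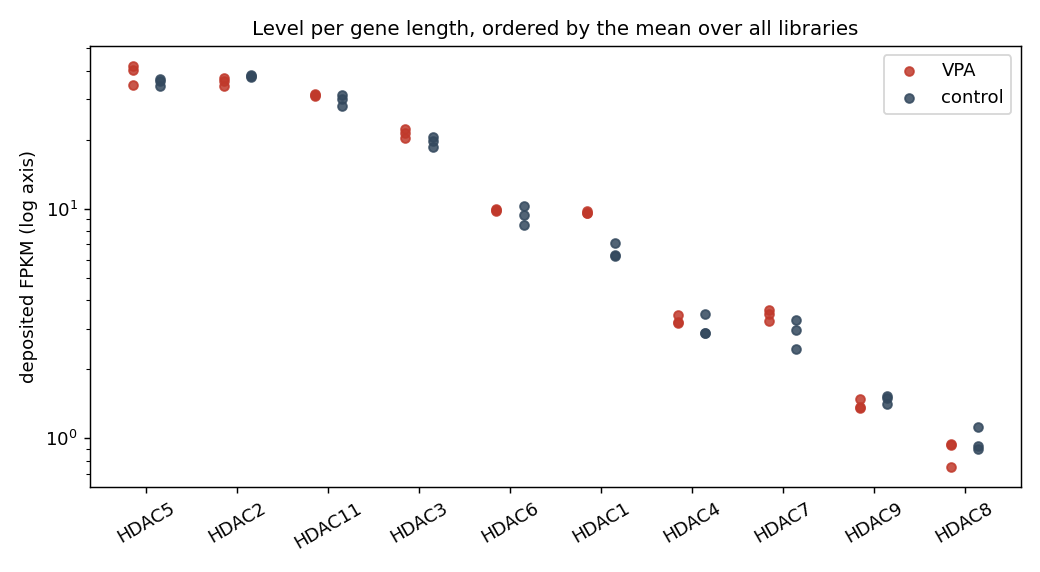
Deposited FPKM of each gene (vertical log axis) in every library, ordered from left to right by the mean over the 6 libraries. Red points are the 3 VPA libraries and dark points the 3 controls. HDAC5 and HDAC2 overlap at the top, averaging 37.4 and 36.9 FPKM, HDAC8 is lowest at 0.753 to 1.12 FPKM, and HDAC1 is the gene whose red and dark points stand farthest apart.

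The low FPKM of HDAC9 goes with the gene length the authors divided by. The deposited FPKM and counts imply a length of 38401 bases for HDAC9, longer than that of 99.96% of the 17201 genes, whose median is 3460 bases. HDAC9 had 846 to 1035 reads in each library, more than HDAC3 with 679 to 832. HDAC8 was divided by 9379 bases and HDAC4 by 8823, against 2077 for HDAC2 and 2125 for HDAC1. The place of HDAC9, HDAC8 and HDAC4 in the order therefore depends on these lengths. The comparison of any given gene between VPA and control libraries does not, since a gene's length was the same in every library. Sums and shares of FPKM over several genes, given below, do depend on them, as each gene is weighted by its length.

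By class, the genes of class I held 42.0 to 45.0% of the summed FPKM of the 10 genes in VPA libraries and 44.1 to 44.2% in controls. Class IIa held 27.8 to 31.5% in VPA and 28.2 to 29.9% in control libraries. HDAC11 alone held 19.6 to 20.8% in VPA and 19.1 to 21.3% in control libraries, and HDAC6 held 6.12 to 6.44% and 5.75 to 7.04%. The summed FPKM of the 10 genes was 160, 155 and 153 in VPA 391, 392 and 393 and 147, 149 and 146 in controls 401, 402 and 408, a description given without a test.

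HDAC1 was higher in VPA than in control cortex, and it was the only 1 of the 10 genes that passed the test. Called here means an adjusted p under 0.05 in edgeR's quasi-likelihood test with Benjamini-Hochberg adjustment over all 14373 genes tested. In that test 40 genes were called higher in VPA, which is 0.278% of those tested, and 12 genes lower, which is 0.0835%, or 0.362% together. All 10 genes entered the test, with 7 positive and 3 negative log2 fold changes. The median log2 fold change was 0.08 over the 10 genes and 0.0018 over all genes tested, of which 50.5% were positive. The groups did not overlap for 1 gene higher in VPA (HDAC1) and 1 lower (HDAC2), against 12.1% and 9.07% of all genes tested.

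**Figure D2:**
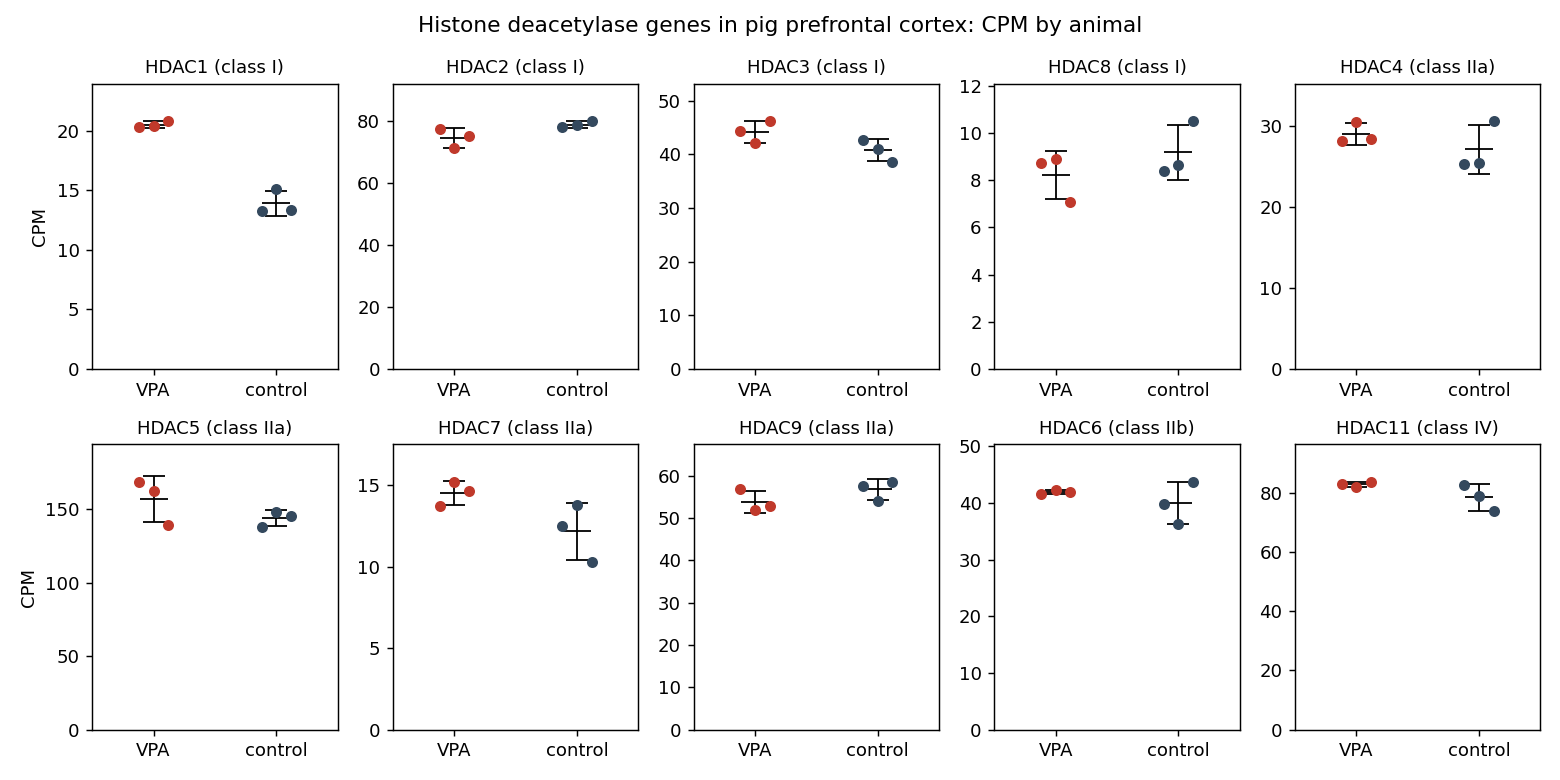
CPM of each gene by animal, with the 3 VPA animals (red) left of the 3 controls (dark); bars show the mean ± SD and each vertical axis starts at 0. HDAC1 is at 20.3 to 20.8 CPM in VPA animals and 13.2 to 15.1 CPM in controls, a gap that none of the other 9 panels shows in proportion to its level.

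HDAC1 had 20.3, 20.4 and 20.8 CPM in VPA 391, 392 and 393, against 13.2, 15.1 and 13.4 CPM in controls 401, 402 and 408. Every VPA animal stood above every control, and the lowest VPA value was 5.20 CPM above the highest control. The gene averaged 20.5 ± 0.285 CPM in VPA and 13.9 ± 1.06 CPM in controls (SD, n = 3 each), a fold change of 1.46 with a 95% interval of 1.26 to 1.69. On the log2 scale this was 0.55 ± 0.095 (SE), with an adjusted p of 0.048 in edgeR's test, just under the threshold. By unadjusted p it ranked 44 among the 14373 genes. The counts behind these values were 332 to 375 reads in VPA and 235 to 255 in control libraries. Counting error alone would give an SD of about 1.10 CPM among VPA libraries and 0.892 among controls, so the spread of 0.285 seen among the VPA animals is below what sampling of reads gives.

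The size of the HDAC1 difference was similar under every processing choice tried, and its call was not. Over 20 alternatives the log2 fold change ran from 0.50 to 0.67 and the adjusted p from 0.0052 with DESeq2 to 0.36 with an oligodendrocyte marker score as a covariate. The unadjusted p of HDAC1 ran from 5.7e-05 with DESeq2 to 0.0030 in edgeR with only the 4 libraries that had EIF1AY reads. Adjustment also depends on the p-values of all other genes, and genes called numbered 0 to 444 over these alternatives. HDAC1 passed in 7 of the 20, DESeq2 among them, where 3.64% of 12198 genes were called. It missed with limma-voom, where 0.209% of 14373 were. It did not pass when any 1 of the 6 libraries was left out, where the log2 fold change was 0.50 to 0.61 and the adjusted p 0.066 to 0.17. With the oligodendrocyte score in the model the log2 fold change was 0.67 ± 0.14, and among the 4 libraries with EIF1AY reads it was 0.51 ± 0.13 (adjusted p = 0.16). Without VPA 393, the library high in striatal markers, it was 0.54 ± 0.11 (adjusted p = 0.075). The part of the oligodendrocyte precursor and astrocyte markers in the HDAC1 difference was not tested.

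**Figure D3:**
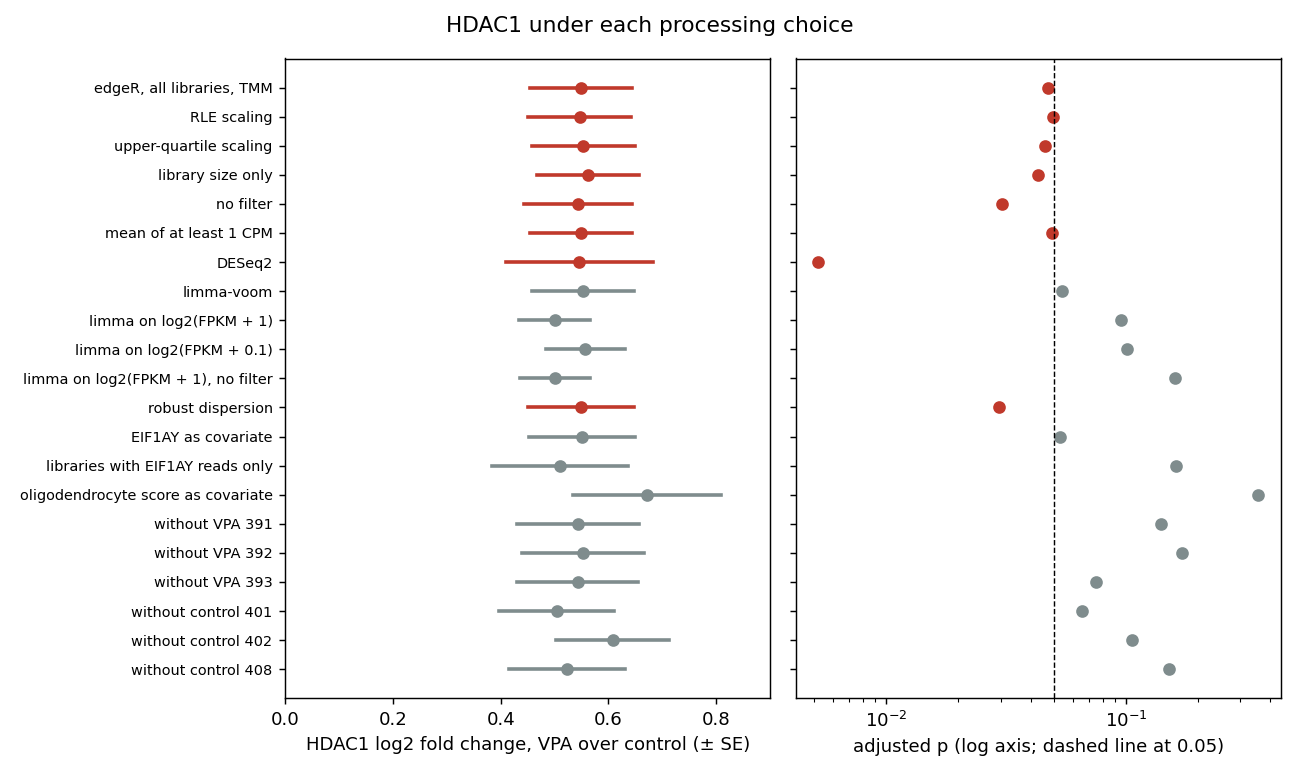
HDAC1 under the analysis with all libraries (top row) and 20 alternatives: left, log2 fold change of VPA over control ± SE; right, adjusted p on a log axis with a dashed line at 0.05, red where it is under 0.05. The fold change stays between 0.50 and 0.67 while the adjusted p falls on both sides of the line.

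HDAC2, the paralog that shares complexes with HDAC1, lay slightly the other way without passing the test. It had 77.4, 71.0 and 74.9 CPM in VPA 391, 392 and 393, against 77.8, 78.4 and 79.9 CPM in controls 401, 402 and 408. The groups were separate by 0.40 CPM, less than the counting SD of 2.09 CPM for a VPA library. The fold change was 0.938 with a 95% interval of 0.859 to 1.02 (adjusted p = 0.46 in edgeR). HDAC1 and HDAC2 are similar in sequence, and the sources used here do not state how reads that match both were assigned.

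HDAC1 made up a larger part of the HDAC1 and HDAC2 pair in VPA cortex. This follows from the values above, since every VPA library was above every control for HDAC1 and below every control for HDAC2. The share and its test are thus no separate result. In deposited FPKM, HDAC1 was 20.4, 21.9 and 21.4% of the sum of both in VPA 391, 392 and 393, against 14.3, 15.9 and 14.1% in controls 401, 402 and 408. The lowest VPA share was above the highest control share. Means were 21.2 ± 0.745% in VPA and 14.7 ± 0.992% in controls (SD, n = 3 each), a difference of 6.51 percentage points. The exact two-sided permutation test gave p = 0.1, the smallest value that 3 against 3 libraries allow, so this design cannot reach 0.05. HDAC2 remained the more abundant of the pair in all 6 libraries.

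**Figure D4:**
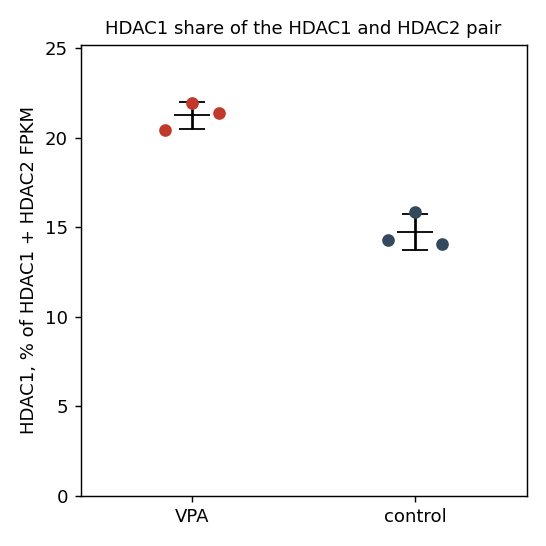
HDAC1 FPKM as a percentage of HDAC1 plus HDAC2 FPKM in each animal, with VPA (red) left of control (dark), bars showing the mean ± SD and the axis starting at 0. VPA animals sit at 20.4 to 21.9% and controls at 14.1 to 15.9%.

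The remaining class I genes, HDAC3 and HDAC8, were not called. HDAC3 had 44.4, 42.1 and 46.3 CPM in VPA 391, 392 and 393, against 42.7, 41.0 and 38.6 CPM in controls 401, 402 and 408. The groups overlapped only through VPA 392 and control 401, and the fold change was 1.08 (95% interval 0.963 to 1.20, adjusted p = 0.51 in edgeR). HDAC8 had 8.73, 8.90 and 7.06 CPM in VPA, against 8.39, 8.66 and 10.5 CPM in control libraries in the same order of animals. VPA 393 was the lowest library and control 408 the highest, with the other 4 between 8.39 and 8.90 CPM. The fold change of HDAC8 was 0.887 with an interval of 0.705 to 1.12, the widest of the 10 genes on the log2 scale (adjusted p = 0.62 in edgeR), on 127 to 185 reads a library.

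**Figure D5:**
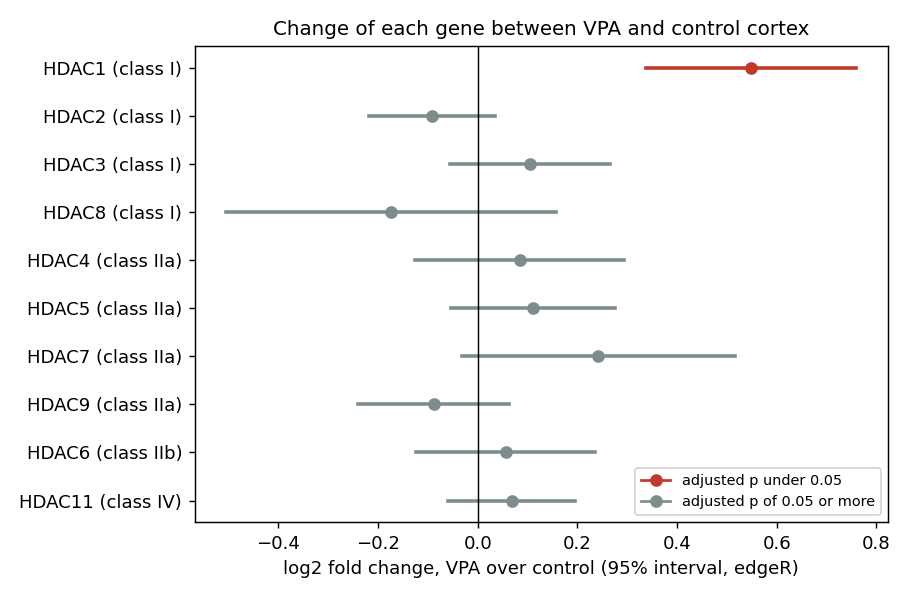
Log2 fold change of VPA over control for each gene with its 95% interval from edgeR; red marks an adjusted p under 0.05 and grey one of 0.05 or more. HDAC1 at 0.55 is the only gene whose interval leaves out 0; the other 9 estimates lie between -0.17 and 0.24.

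None of the 4 class IIa genes was called, and HDAC5 depended on the library. HDAC5 had 169, 162 and 139 CPM in VPA 391, 392 and 393, against 138, 148 and 145 CPM in controls 401, 402 and 408. VPA 391 and 392 stood above every control and VPA 393 at the low end of the controls, a spread of 15.7 CPM (SD) where counting gives 3.04. The fold change was 1.08 (95% interval 0.964 to 1.21, adjusted p = 0.50 in edgeR). Without VPA 393 the log2 fold change was 0.20, against 0.11 with all libraries, and still did not pass (adjusted p = 0.14 in edgeR). It was 0.042 without VPA 391 and 0.085 without VPA 392 (adjusted p = 0.86 and 0.75 in edgeR). VPA 393 is also the library with the most striatal marker RNA, and the part of that in its HDAC5 level was not tested.

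HDAC7, which represses MEF2 targets in endothelial cells and thymocytes of mice, had the largest fold change after HDAC1. It had 13.8, 15.2 and 14.6 CPM in VPA 391, 392 and 393, against 12.5, 13.8 and 10.3 CPM in controls 401, 402 and 408. The groups met at VPA 391 and control 402, which differed by less than counting error. The fold change was 1.18 (95% interval 0.978 to 1.43, adjusted p = 0.37 in edgeR), and the log2 fold change of 0.24 was 0.14 without control 408 and 0.33 without control 402. The summed level of 10 endothelial markers overlapped between groups, at 507 to 611 CPM in VPA and 519 to 559 CPM in controls.

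HDAC4 and HDAC9, the class IIa genes tied to synaptic plasticity and to activity-dependent dendrite growth in rodent neurons, had overlapping groups. HDAC4 had 28.2, 30.5 and 28.3 CPM in VPA, against 25.3, 25.4 and 30.6 CPM in control libraries, in the order of animals used above. Control 408 was the highest of the 6 libraries, and the other 2 controls the lowest. Its fold change was 1.06 (95% interval 0.917 to 1.23, adjusted p = 0.72 in edgeR). The log2 value of 0.08 was -0.01 among the 4 libraries with EIF1AY reads. With a library left out it was 0.027 to 0.18, the highest being without control 408. HDAC9 had 56.8, 51.9 and 52.7 CPM in VPA, against 57.5, 54.0 and 58.6 CPM in control libraries, a fold change of 0.941 (95% interval 0.847 to 1.04, adjusted p = 0.57 in edgeR).

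HDAC6 and HDAC11 were close to level between groups. HDAC6 had 41.7, 42.2 and 41.9 CPM in VPA 391, 392 and 393, against 39.9, 36.3 and 43.8 CPM in controls 401, 402 and 408, so that the VPA values lay inside the control range. The fold change was 1.04 (95% interval 0.918 to 1.18, adjusted p = 0.79 in edgeR). HDAC11 had 82.9, 82.0 and 83.7 CPM in VPA, against 82.5, 79.0 and 73.7 CPM in control libraries. Its fold change of 1.05 had the narrowest interval among these genes on the log2 scale apart from HDAC2, 0.960 to 1.14 (adjusted p = 0.60 in edgeR). The VPA SDs of 0.287 CPM for HDAC6 and 0.849 for HDAC11 were below the 1.57 and 2.21 CPM that counting alone gives.

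For the 9 genes that were not called, adjusted p-values ran from 0.37 to 0.79, and their 95% intervals together spanned fold changes of 0.705 to 1.43. These intervals still allow changes of the size that few replicates miss. Counts were simulated for this comparison over 14279 genes. In them edgeR found 36% of the genes changed 1.25-fold, 70% of those changed 1.5-fold and 90% of those changed 2-fold. The simulation set each gene's spread between animals by its level alone, so these shares may be too high for the real libraries. HDAC6 and HDAC8 are X-linked in mammals, and the 2 libraries almost without EIF1AY reads were compared for them. VPA 392 had 42.2 CPM of HDAC6 and 8.90 of HDAC8, and control 401 had 39.9 and 8.39, all within the range of the other 4 libraries.

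HDAC10, the remaining class IIb gene, was not among the 10 chosen genes and was named after its values were seen. It had 5.26, 5.40 and 6.56 CPM in VPA 391, 392 and 393, against 4.06, 4.75 and 3.87 CPM in controls 401, 402 and 408, on 68 to 118 reads a library. The groups did not overlap, which held in this direction for 12.1% of all genes tested. The fold change of 1.35 (95% interval 1.03 to 1.77) did not pass (adjusted p = 0.26 in edgeR).

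Genes that work with these enzymes or against them were not called. Over 9 lists, 128 distinct genes were listed and 120 tested. In edgeR 0 were called, against 0.362% of all genes tested, and 20 had an unadjusted p under 0.05 (16.7%, against 16.2% of all genes tested). DESeq2 called 5 of them, where it called 3.64% of 12198 genes. The groups did not overlap for 16 genes higher and 13 lower in VPA, 24.2% of the 120, against 21.2% of all genes tested. Their median log2 fold change was -0.00013. These shares are near those of all genes. Some of the genes named below were picked per list for a low p in these same data. Their intervals and p-values are thus those of picked genes.

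The HDAC1 and HDAC2 complexes showed no call. Of 15 SIN3 complex genes 6 had positive and 9 negative log2 fold changes (median -0.01). SIN3B, a scaffold of that complex, had 128 ± 4.62 CPM in VPA and 143 ± 5.05 CPM in controls (SD, n = 3 each; log2 fold change -0.17, adjusted p = 0.13 in edgeR), and SAP30L had 49.1 ± 5.14 and 42.2 ± 1.30 CPM (adjusted p = 0.28). The scaffold gene SIN3A had 46.9 ± 4.57 and 47.0 ± 4.32 CPM (adjusted p = 0.96). The histone chaperone genes RBBP4 and RBBP7, shared by SIN3 and NuRD, had log2 fold changes of 0.05 and 0.04. Of 12 NuRD genes 8 were positive and 4 negative (median 0.03). MTA3 had 37.3 ± 1.25 CPM in VPA and 43.2 ± 2.94 CPM in controls (adjusted p = 0.18), and the remodelling ATPase genes CHD3 and CHD4 had log2 fold changes of 0.10 and 0.03.

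Of 14 CoREST and MiDAC genes 10 were positive and 4 negative (median 0.04). RCOR3, a CoREST scaffold gene, had 36.9 ± 0.662 CPM in VPA and 32.4 ± 1.34 CPM in controls (SD, n = 3 each; adjusted p = 0.26 in edgeR), and HMG20B stood at 0.22 on the log2 scale (adjusted p = 0.46). The MiDAC genes ELMSAN1, listed under that older symbol of MIDEAS, and DNTTIP1 had log2 fold changes of 0.03 and 0.05. MTA1 and RCOR1 are not analysed here.

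None of the 7 genes of the HDAC3 corepressor complexes was called, with 3 positive and 4 negative log2 fold changes (median -0.04). NCOR1, which encodes NCoR, had 111 ± 1.78 CPM in VPA and 106 ± 5.52 CPM in controls (SD, n = 3 each; adjusted p = 0.62 in edgeR). CORO2A, another component gene, had 20.1 ± 1.38 CPM in VPA and 26.6 ± 2.58 CPM in controls, a fold change of 0.748 (95% interval 0.644 to 0.870, adjusted p = 0.083 in edgeR and 0.031 in DESeq2).

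Among the partners and kinases of class IIa enzymes, 11 of 26 tested genes were positive and 15 negative (median -0.02). MEF2C, a transcription factor of neurons that class IIa enzymes repress, had 663, 607 and 724 CPM in VPA 391, 392 and 393, against 756, 818 and 781 CPM in controls 401, 402 and 408. Every VPA library was below every control, with a fold change of 0.839 (95% interval 0.760 to 0.927, adjusted p = 0.10 in edgeR and 0.0062 in DESeq2). The 14-3-3 gene YWHAG had 1087 ± 18.6 CPM in VPA and 1233 ± 30.2 CPM in controls (SD, n = 3 each; adjusted p = 0.092 in edgeR and 0.0046 in DESeq2). Log2 fold changes were -0.08 for MEF2A, 0.03 for MEF2D, -0.05 for YWHAE and -0.08 for the kinase gene CAMK4. Beside these, 12 glutamatergic neuron markers had a median log2 fold change of -0.16, with 9 negative, and the part of this in the MEF2C difference was not tested.

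Around HDAC6, 5 of 11 substrate and partner genes were positive and 6 negative (median -0.04). ATAT1, the tubulin acetyltransferase gene that acts opposite to HDAC6, had 56.6, 59.6 and 57.1 CPM in VPA 391, 392 and 393, against 50.7, 47.7 and 49.2 CPM in controls 401, 402 and 408. The groups were separate, and the fold change of 1.16 (95% interval 1.06 to 1.28) did not pass (adjusted p = 0.13 in edgeR). BAG3, a co-chaperone gene of aggregate clearance, had 25.0 ± 4.36 CPM in VPA and 17.9 ± 2.85 CPM in controls (SD, n = 3 each; adjusted p = 0.15). Around HDAC8, 8 of 12 cohesin genes were positive and 4 negative (median 0.08). PDS5B stood at -0.18 (adjusted p = 0.18) and STAG1 at 0.16 (adjusted p = 0.35) on the log2 scale. SMC3, whose acetylated protein HDAC8 acts on, had one of -0.02 and the cohesin loader gene NIPBL one of 0.11.

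Sirtuins, the NAD-dependent deacetylases that VPA is not known to inhibit, had 4 positive and 3 negative log2 fold changes among 7 genes (median 0.0033). SIRT2, a tubulin deacetylase abundant in oligodendrocytes, had 249 ± 10.3 CPM in VPA and 220 ± 17.0 CPM in controls (SD, n = 3 each; adjusted p = 0.19 in edgeR). The mitochondrial desuccinylase gene SIRT5 had 29.2 ± 2.55 and 36.5 ± 4.84 CPM (adjusted p = 0.16), and SIRT1 a log2 fold change of -0.10. Of 18 histone acetyltransferase genes, whose products add the acetyl groups, 7 were positive and 11 negative (median -0.06). The paralogs KAT2B and KAT2A stood apart in sign, at 0.17 (adjusted p = 0.18) and -0.18 (adjusted p = 0.20), neither called. CREBBP had a log2 fold change of 0.04 and EP300 one of 0.0024.

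The genes whose profile over the 6 libraries was most like that of HDAC1 were ranked by Pearson correlation of log2 CPM among 13771 genes. SHANK3 had r = 0.996, DOCK6 and TNFRSF13C 0.994 each, THRSP 0.991 and GPATCH2L 0.989. All 5 had separate groups, higher in VPA, which follows from choosing them for their likeness to HDAC1, and none was called. SHANK3, a postsynaptic scaffold gene, had 160 CPM in VPA and 135 CPM in controls (adjusted p = 0.065 in edgeR). With 6 libraries in 2 groups, and so many genes searched, such values describe these libraries only.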

How the data were processed

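RNA from 3 VPA and 3 control cortices was extracted with TRIzol and made into libraries with a VAHTS Universal V6 kit, per the labels' protocols; the aligner, counter, strand setting and build are not stated in the sources used here. For each library the authors deposited a count table and an FPKM table, per the file headers. Dividing each count by its library total and by 1 whole-number length per gene gave all 97071 nonzero FPKM values (relative tolerance 0.001). Of 17201 names, 17177 matched the RefSeq table of Sscrofa11.1 and 24 had become dates; all stayed in library totals. No coordinates or sequences are printed, as no file used here holds them for these counts' build.

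CPM used each file's total. Tests used R 4.3.3 and edgeR 4.0.16 on the counts: filterByExpr defaults (14373 genes kept, 2828 not tested), TMM, glmQLFit and glmQLFTest without covariates, 4 residual degrees of freedom, Benjamini-Hochberg over all genes at 0.05. Standard errors came from the F statistic. The common biological coefficient of variation was 9.01%. Alternatives used other scaling, filters, DESeq2 1.42.0, limma 3.58.1 (voom; log2(FPKM + 1) with a mean FPKM of at least 0.5; a pseudocount of 0.1), robust dispersion, covariates and each library left out. In simulated counts, whose dispersion was set by level alone, 5.67% of edgeR's 141 calls were false, and 0 calls were made with no gene changed. There DESeq2 made 136 calls and limma-voom 138, against 444 and 30 in the real libraries, where edgeR made 52. The simulation thus does not measure false calls in the real libraries. Every pair of libraries differed beyond sampling noise (chi-square per degree of freedom 5.91 to 13.2). P-values measure the spread between these animals, whose litters are not given. As exposure was in gestation, a difference between litters cannot be told apart from one between VPA and control. Genes and lists were chosen with earlier results of these data known. Named partner genes are, per list, the called ones or otherwise the 2 of lowest p, plus 22 fixed genes and the 5 most like HDAC1. One gene that this rule names is not reported here.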

Additional observations from a re-analysis of the deposited data

How the results depend on the processing

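No paired analysis was possible because the animal numbers are not shared between the groups. HDAC1 kept its direction in all 20 alternatives and passed with RLE, upper-quartile or no scaling, both other filters, DESeq2 and robust dispersion. It did not pass with limma-voom (log2 fold change 0.55, adjusted p = 0.054), limma on log2(FPKM + 1) (0.50), with a pseudocount of 0.1 (0.56) or without the FPKM filter (0.50), EIF1AY as a covariate (0.55), libraries with EIF1AY reads only (0.51) or the oligodendrocyte score (0.67), and gave 0.50 to 0.61 with a library left out; the number of called members was then 0 in each and 1 otherwise. The EIF1AY set and the leave-one-out fits have fewer libraries, and each covariate takes a degree of freedom. The limma fits kept all 6 libraries without a covariate. Their unadjusted p for HDAC1 was 1.4e-04 with voom and, in the order above, 6.5e-05, 6.4e-05 and 1.3e-04 on FPKM. In the main edgeR fit it was 1.5e-04, above each of these. The limma misses therefore came with the adjustment over all genes, not with a higher unadjusted p for HDAC1. Why the fits differ, and the causes of the other misses, were not tested.

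All genes called numbered 52. There were 141 without a filter, 168 with robust dispersion, 444 with DESeq2, 344 at a threshold of 0.1, 30 with limma-voom, 2, 2 and 1 with the limma FPKM fits in the order above, 0 with EIF1AY libraries only (1919 at an unadjusted p under 0.05 in edgeR), 3 with the oligodendrocyte score and 0 to 66 with a library left out, the 0 being without VPA 391 or VPA 392 (1897 and 1723 at an unadjusted p under 0.05). Partner genes called numbered 0, with 1 without a filter, 1 with robust dispersion, 5 with DESeq2 and 3 at a threshold of 0.1.

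Log2 fold changes that turned sign were small and not called. With the oligodendrocyte score they were -0.035 for HDAC6, 0.099 for SIN3A, -0.011 for NCOR1, 0.030 for MEF2A, 0.037 for YWHAE, 0.018 for SMC3, -0.043 for CREBBP and -0.019 for ELMSAN1. With EIF1AY libraries only they were -0.010 for HDAC4 and 0.033 for SIN3A. EP300 was at -0.00026 with RLE, -0.0031 without a filter and -0.00079 with DESeq2. Leaving out a library gave -0.014 to 0.13 for HDAC6, -0.094 to 0.057 for SIN3A, -0.0093 to 0.040 for CHD4, -0.071 to 0.016 for SMC3, -0.014 to 0.084 for CREBBP, -0.066 to 0.065 for EP300 and -0.019 to 0.059 for ELMSAN1.

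The HDAC1 share difference of 6.51 points was 6.61 in CPM and 6.18 to 7.08 with a library left out, and 3 neighbours in the order of levels overlapped whichever library was left out. HDAC8 and HDAC7, with the fewest reads, had the widest intervals on the log2 scale.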
